A study of Homo sapiens with 12 samples.

Results

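The transcripts of the general mRNA decay machinery were followed in human A549 cells, a lung carcinoma line, with and without RNase L. The set held 42 genes of 58671 in the table, chosen by gene symbol for their place in decapping, deadenylation, the LSM ring, the 5′ to 3′ exonucleases, the RNA exosome and UPF1; no measured value enters that rule. Of the 42 genes, 39 had at least 1 FPKM (fragments per kilobase of transcript, scaled to the size of the library) in 1 group or more and were kept. DCP1B, LSM2 and PARN were listed at 0 in all 4 groups and were not tested by the authors, and since genes that every cell uses are among them, no absence is read from these listings.

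The 4 groups were RNase L knockout A549 cells (RLKO) collected 6 h after transfection of poly(I:C) at 500 ng/ml, untreated RLKO cells, parental A549 cells (WT) given the same poly(I:C), and untreated WT cells. Each group had 3 samples, described as independent in the series' design text, and total RNA was sequenced once rRNA had been depleted, with ERCC spike-in RNAs added beforehand. Poly(I:C) is a synthetic double-stranded RNA. Whether the knockout line is 1 clone is not stated in the sources used here, so the genotype and the line cannot be told apart. The table analysed here gives 1 FPKM value per group and no value of a single sample, so the error between samples stands only behind the authors' q-values, which compare treated with untreated cells of 1 genotype, and no comparison between genotypes carries a test.

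Cytoplasmic mRNA decay usually begins with shortening of the poly(A) tail by the PAN2-PAN3 and CCR4-NOT deadenylases. The body of the message is then removed from the 5′ end, after the LSM1 to LSM7 ring and its partner PATL1 have helped the DCP2 enzyme to take off the cap, by the exonuclease XRN1, or from the 3′ end by the RNA exosome, a barrel of core subunits to which a catalytic nuclease is bound. RNase L works differently: it is a latent endonuclease that double-stranded RNA switches on through the oligoadenylates made by OAS enzymes, and it cuts single-stranded RNA within the chain, leaving fragments for other nucleases to remove.

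Log2 changes below compare poly(I:C) with untreated cells on FPKM scaled to the spike-ins, after adding a pseudocount of 1 FPKM, so the change of low genes is understated. The spike-ins made up more of the library in treated than in untreated cells, by 1.13 times in RLKO and 1.53 times in WT, and on this scale the median log2 change of the 12181 kept protein-coding genes was -0.24 in RLKO and -0.70 in WT. Without that scaling, in FPKM as deposited, these medians were -0.10 in RLKO and -0.17 in WT, so the changes below stand beside the median of their line. The authors' p-values follow the FPKM as deposited: CNOT1, at 129.6 FPKM in treated and 128 FPKM in untreated WT cells, has p = 0.961 in the authors' deposited table. In bulk RNA, fewer cells and less RNA per cell cannot be told apart. Keratins and the A549 enzymes AKR1B10, AKR1C1 and ALDH1A1 were abundant, KRT7, KRT8, KRT18 and these enzymes at 180.1 FPKM or more in every group and KRT19 at 6.64 to 54.0 FPKM, while EPCAM did not exceed 1.03 FPKM and CDH1 lay at 2.93 to 4.52 FPKM. The log2 changes of these 9 A549 markers ranged from -1.44 (AKR1C1) to 0.016 (KRT8) in RLKO and from -3.16 (AKR1C1) to -0.58 (EPCAM) in WT, with none called. Of markers of other cells, PTPRC and CD3E did not exceed 0.0421 FPKM, PECAM1 did not exceed 0.165 FPKM, COL1A2 was listed at 0, CD14 stayed under 1 FPKM and COL1A1 lay at 2.06 to 7.17 FPKM. The untreated lines stood apart at KRT19 (log2 1.57, untreated RLKO over untreated WT) and COL1A1 (-1.29), and the part of any such marker in the results below was not tested.

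As a set, the decay factors were lower after poly(I:C) in WT cells about as much as protein-coding genes in general, but 2 of their complexes, the LSM ring and the exosome core, lay far lower than the rest. Against protein-coding genes of like level and length, set out below, the LSM ring still lay lower in WT, by a median of -0.77. The exosome core then lay only -0.15 from its classes. The median log2 change of the 39 factors was -0.24 in RLKO, as for all protein-coding genes, and -0.78 in WT, against -0.70 for all protein-coding genes. The RLKO median turned to 0.073 with median-ratio scaling, where the protein-coding median was 0.060. A log2 change below 0 was seen for 33 of the 39 in RLKO, 84.6% against 80.1% of protein-coding genes, and for 33 in WT, 84.6% against 78.4%. In FPKM as deposited it was seen for 22 of the 39 in RLKO, 56.4% against 63.4%, and for 27 in WT, 69.2% against 58.2%. The RLKO share thus lay above or below the background depending on the scale. Only LSM4 and EXOSC1, both in WT and both lower, passed the authors' threshold of q under 0.05: 2 of 39 factors, 5.13%, where 3.09% of tested protein-coding genes were called lower and 4.28% higher. In RLKO cells Cuffdiff called none of the 39, against 0.839% of protein-coding genes higher and 0.0252% lower; CNOT2 and EXOSC1 had an unadjusted p under 0.05, both lower, and none had one with a higher value (backgrounds 1.9% lower and 2.26% higher).

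At an unadjusted p under 0.05 in WT, 6 factors were lower (LSM1, LSM3, LSM4, LSM5, EXOSC1 and EXOSC8; 15.4%, background 12.2%) and 4 were higher (XRN1, CNOT3, CNOT4 and PAN2; 10.3%, background 9.04%). CNOT3 passed the filter on low values only through treated WT cells, where it is high, and without it 3 of 38 were higher, 7.89%. By size alone, 19 of the 39 had a log2 change of -1 or lower in WT, 48.7% against 37% of protein-coding genes, and PAN2 was the single factor at 1 or higher, where the background was 4.7%. These counts are those of the spike-in scale: in FPKM as deposited 12 factors were at -1 or lower, 30.8% against 17.5%, and CNOT4 and XRN1 joined PAN2 at 1 or higher, 7.69% against 9.44%. In RLKO 4 factors, LSM3, EXOSC1, EXOSC9 and EXOSC8, reached -1 or lower, 10.3% against 5.34%, and none reached 1 or higher, against 1.45%.

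**Figure D1:**
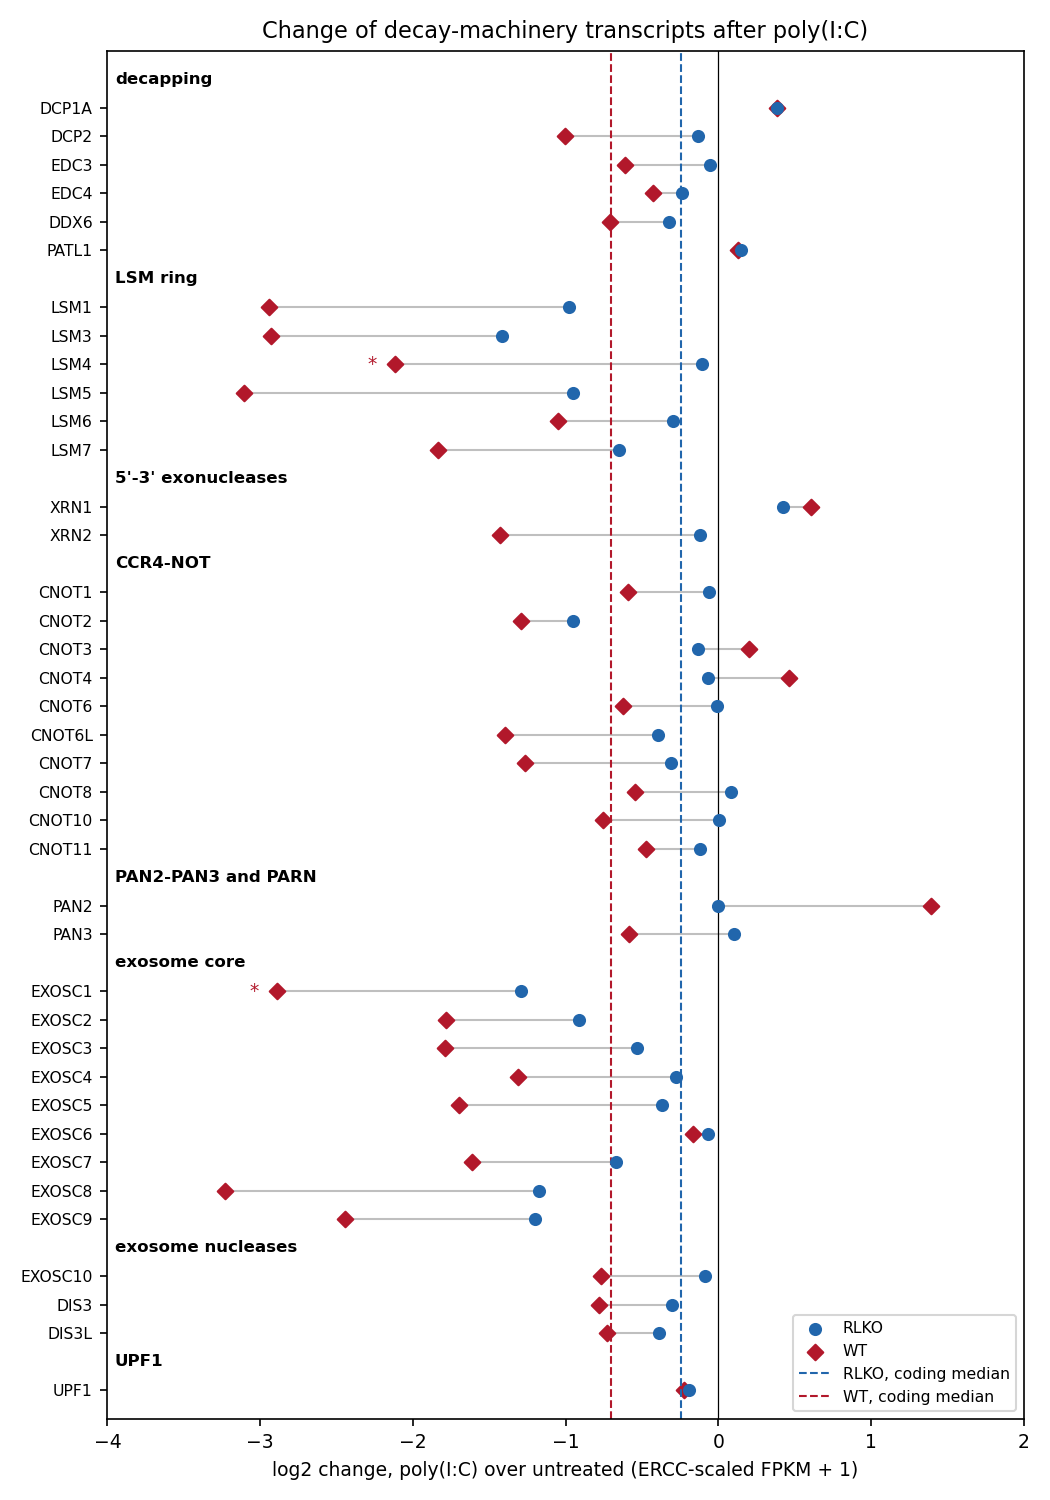
Log2 change, treated over untreated, of FPKM scaled to the spike-ins (horizontal axis, pseudocount 1) of the 39 kept factors, grouped by role, in RLKO (blue circles) and WT (red diamonds); each point is 1 value per group of samples with no error available, dashed lines are the medians of 12181 protein-coding genes, and asterisks mark the 2 called genes. In WT the LSM ring and exosome core points reach -3.11 and -3.23, and PAN2 stands alone at 1.39; with FPKM as deposited every point moves right, by up to 0.61 in WT.

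The LSM ring had the lowest median change of any role. This ring of Sm-like proteins binds the 3′ end of deadenylated mRNA and promotes decapping; LSM1 marks the cytoplasmic form, and the other subunits also serve a nuclear ring on U6 snRNA. The 6 measured subunits had a median log2 change of -0.80 in RLKO and -2.52 in WT, and all 6 lay below 0 in both lines on the spike-in scale. In FPKM as deposited the medians were -0.62 in RLKO, where LSM4 lay above 0, and -1.93 in WT. With median-ratio scaling they were -0.43 in RLKO, where LSM4 and LSM6 lay above 0, and -1.99 in WT.

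LSM4 fell in WT cells, to 34.3 FPKM in treated against 99.8 FPKM in untreated cells, for a log2 change of -2.12 (q = 0.0236 in the authors' deposited table). In RLKO cells it stood at 82.0 FPKM in treated and 78.2 FPKM in untreated cells, for a log2 change of -0.11 (q = 1.00 in the authors' deposited table). The treated WT group was thus the low one, with the other 3 groups at 78.2 FPKM or more. The difference of the changes, WT minus RLKO, was -2.01, one of the 3 lowest among the factors, together with those of LSM5 and EXOSC8.

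LSM5, the most abundant subunit of the ring, had 162 FPKM in treated and 278 FPKM in untreated RLKO cells, against 62.7 FPKM in treated and 359 FPKM in untreated WT cells. Its log2 change was -0.95 in RLKO and -3.11 in WT, where q = 0.111 in the authors' deposited table. LSM1 had 58.9 FPKM in treated and 103 FPKM in untreated RLKO cells, against 28.1 FPKM in treated and 147 FPKM in untreated WT cells (log2 -0.98 in RLKO and -2.94 in WT). In both genes the treated WT value was the lowest of the 4 groups and the untreated WT value the highest, and neither passed the threshold.

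LSM3 had 18.4 FPKM in treated and 45 FPKM in untreated RLKO cells, against 8.77 FPKM in treated and 49.0 FPKM in untreated WT cells. Its log2 change of -1.42 in RLKO was the lowest of all factors there, and in WT it was -2.93, with q = 0.149 in the authors' deposited table. The value of LSM3 is uncertain, since 2 of its 4 pseudogene copies, LSM3P3 and LSM3P5, were listed near its own level and could share its reads: LSM3P3 had 29.6 FPKM in treated and 62.2 FPKM in untreated RLKO cells, against 12.6 FPKM in treated and 69.8 FPKM in untreated WT cells. LSM7 (log2 -0.65 in RLKO and -1.83 in WT) and LSM6 (-0.30 in RLKO and -1.05 in WT) lay nearer to the protein-coding medians.

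The exosome core, the ring and cap of inactive subunits through which RNA is threaded, had the next lowest medians. Its 9 subunits had a median log2 change of -0.67 in RLKO and -1.78 in WT, all 9 below 0 in both lines on the spike-in scale; with FPKM as deposited EXOSC6 lay above 0 in both, and the medians were -0.50 in RLKO and -1.18 in WT. With median-ratio scaling they were -0.31 in RLKO, where EXOSC4 and EXOSC6 lay above 0, and -1.24 in WT, where EXOSC6 did. EXOSC1, a cap subunit also known as CSL4, fell in WT cells to 23.5 FPKM in treated against 119 FPKM in untreated cells, for a log2 change of -2.89 (q = 0.0168 in the authors' deposited table). In RLKO cells EXOSC1 had 46.0 FPKM in treated and 101 FPKM in untreated cells, a log2 change of -1.29 with an unadjusted p = 0.0132 and q = 0.774 in the authors' deposited table. Both treated groups thus lay below both untreated groups, and the called fall was the one in WT.

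EXOSC8, a ring subunit, had the lowest WT change of all 39 factors. It stood at 132 FPKM in treated and 264 FPKM in untreated RLKO cells, against 58.9 FPKM in treated and 367 FPKM in untreated WT cells, log2 changes of -1.17 in RLKO and -3.23 in WT, where q = 0.208 in the authors' deposited table. EXOSC9, another ring subunit, had 43.6 FPKM in treated and 89.8 FPKM in untreated RLKO cells, against 26.1 FPKM in treated and 96.2 FPKM in untreated WT cells (log2 -1.20 in RLKO and -2.44 in WT). The 6 other core subunits ranged from -0.91 (EXOSC2) to -0.06 (EXOSC6) in RLKO and from -1.79 (EXOSC3) to -0.16 (EXOSC6) in WT. EXOSC6 was also the least abundant core subunit, at 7.08 FPKM in treated and 6.59 FPKM in untreated RLKO cells and 9.0 FPKM in treated and 6.68 FPKM in untreated WT cells.

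The nucleases that work on the exosome lay nearer to the protein-coding medians than its core. EXOSC10, a mainly nuclear 3′ to 5′ exonuclease, had 27.4 FPKM in treated and 25.8 FPKM in untreated RLKO cells, against 20.9 FPKM in treated and 23.8 FPKM in untreated WT cells (log2 -0.09 in RLKO and -0.77 in WT). DIS3, the main processive nuclease, had 26.6 FPKM in treated and 29.2 FPKM in untreated RLKO cells, against 17.2 FPKM in treated and 19.9 FPKM in untreated WT cells (log2 -0.30 in RLKO and -0.78 in WT). DIS3L, its cytoplasmic relative, had 38.0 FPKM in treated and 44.3 FPKM in untreated RLKO cells, against 35.2 FPKM in treated and 38.6 FPKM in untreated WT cells (log2 -0.39 in RLKO and -0.73 in WT). In WT the 3 nucleases lay at -0.78 to -0.73, near the protein-coding median of -0.70, whereas 8 of the 9 core subunits lay at -1.31 or lower. None of the nucleases passed the authors' threshold in either line.

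**Figure D2:**
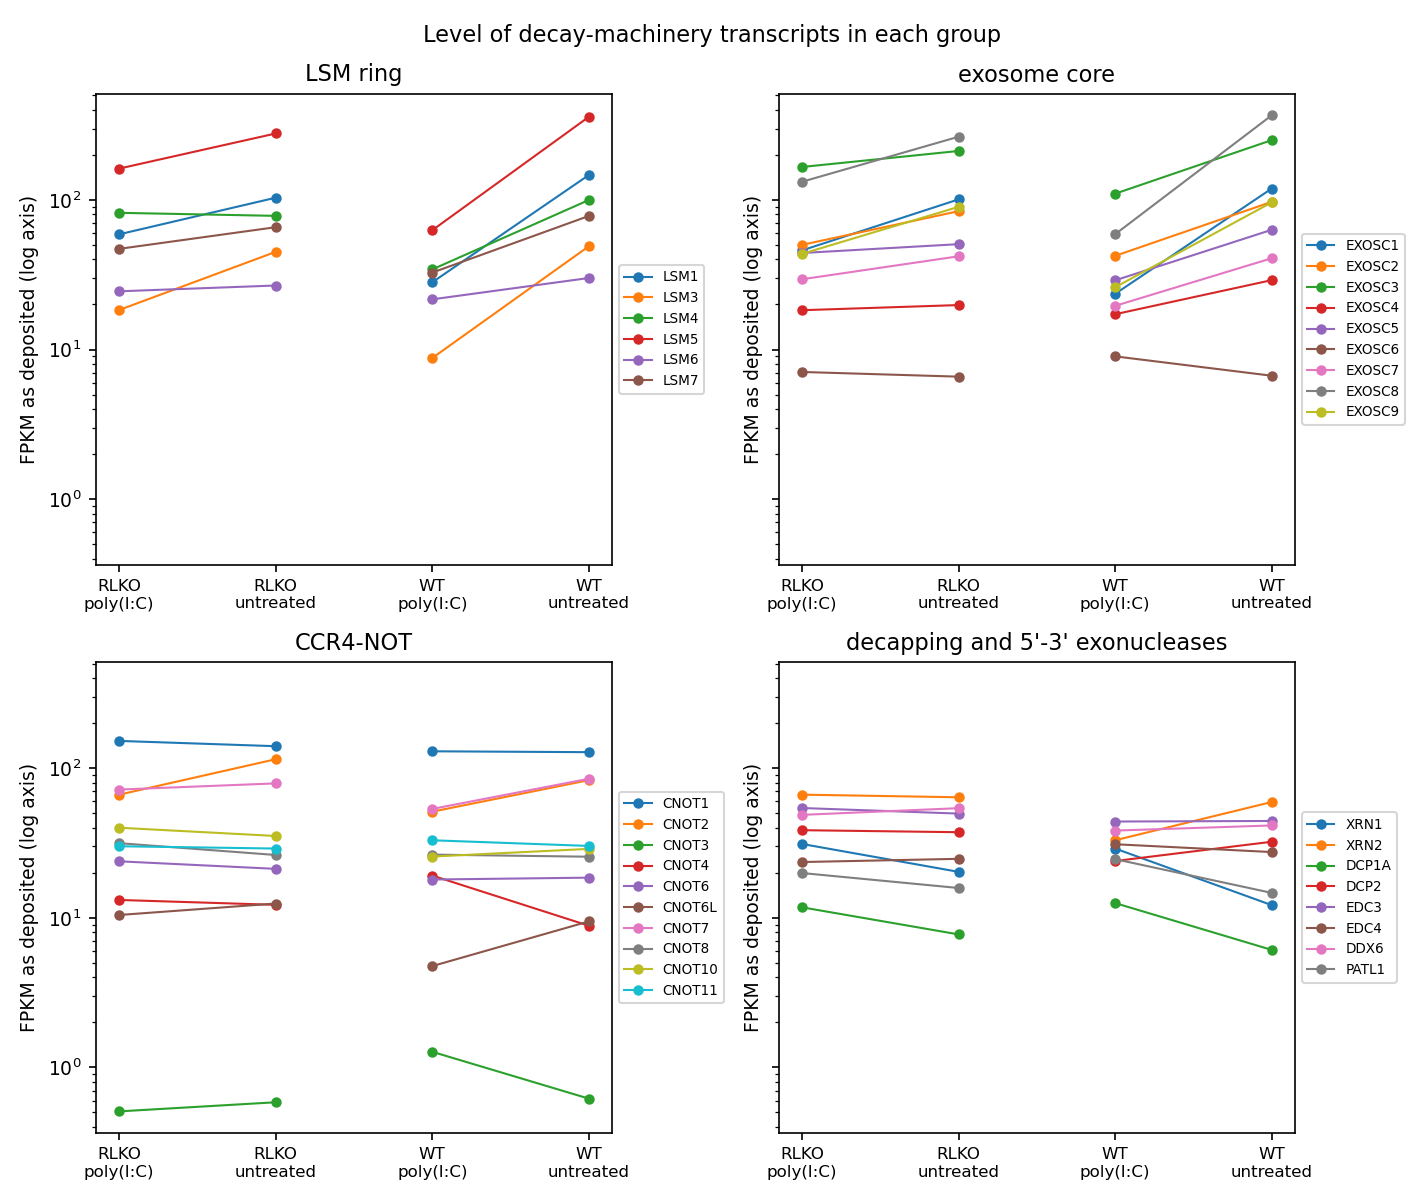
FPKM as deposited (vertical log axis) in the 4 groups, RLKO treated and untreated left of WT treated and untreated, for 4 sets of factors; each point is the authors' single value for a group and without an error, and lines join the treated and untreated groups of a genotype. EXOSC8 stands at 58.9 FPKM in treated and 367 FPKM in untreated WT cells, while CNOT1 stands at 129.6 FPKM in treated and 128 FPKM in untreated WT cells.

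The CCR4-NOT complex, the main cytoplasmic deadenylase, stayed close to the protein-coding medians. Its 10 members had a median log2 change of -0.09 in RLKO, which turned to 0.075 in FPKM as deposited and to 0.26 with median-ratio scaling, and of -0.61 in WT. The WT median was -0.010 in FPKM as deposited and -0.072 with median-ratio scaling. CNOT1, the scaffold, was the most abundant, with 152 FPKM in treated and 140.2 FPKM in untreated RLKO cells, against 129.6 FPKM in treated and 128 FPKM in untreated WT cells (log2 -0.06 in RLKO and -0.59 in WT). CNOT2, part of the NOT module, had 66.5 FPKM in treated and 115 FPKM in untreated RLKO cells, with an unadjusted p = 0.0430 and q = 1.00 in the authors' deposited table. In WT it had 51.2 FPKM in treated and 83.1 FPKM in untreated cells, and its log2 changes were -0.95 in RLKO and -1.29 in WT.

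The catalytic subunits of CCR4-NOT come as pairs of paralogs. Of the pair with the endonuclease-exonuclease-phosphatase fold, CNOT6 had 23.8 FPKM in treated and 21.2 FPKM in untreated RLKO cells, against 18 FPKM in treated and 18.5 FPKM in untreated WT cells (log2 -0.01 in RLKO and -0.62 in WT). Its paralog CNOT6L had 10.4 FPKM in treated and 12.5 FPKM in untreated RLKO cells, against 4.76 FPKM in treated and 9.46 FPKM in untreated WT cells (log2 -0.40 in RLKO and -1.39 in WT). The change of CNOT6L was the lowest of the complex in WT, without passing the threshold.

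Of the DEDD-type pair, CNOT7 had 71.9 FPKM in treated and 79.1 FPKM in untreated RLKO cells, against 53.4 FPKM in treated and 84.9 FPKM in untreated WT cells (log2 -0.31 in RLKO and -1.27 in WT). CNOT8 had 31.5 FPKM in treated and 26.3 FPKM in untreated RLKO cells, against 26.4 FPKM in treated and 25.6 FPKM in untreated WT cells (log2 0.08 in RLKO and -0.55 in WT). In each pair, then, the paralog with the lower change in WT also had the lower change in RLKO. Whether paralogs differ was not tested.

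CNOT4 and CNOT3 were the 2 members of CCR4-NOT above 0 in WT on the spike-in scale, where CNOT1, CNOT8 and CNOT11 joined them in FPKM as deposited. CNOT4, a RING ubiquitin ligase that is loosely attached to the human complex, had 13.2 FPKM in treated and 12.2 FPKM in untreated RLKO cells, against 19.2 FPKM in treated and 8.85 FPKM in untreated WT cells (log2 -0.06 in RLKO and 0.46 in WT), with q = 0.127 for WT in the authors' deposited table. CNOT3, of the NOT module, had 0.508 FPKM in treated and 0.585 FPKM in untreated RLKO cells, against 1.27 FPKM in treated and 0.619 FPKM in untreated WT cells, and was kept only through its treated WT value. LENG1, which overlaps CNOT3, and PRPF31, upstream of it, were listed at 0 in all 4 groups. Whether the low CNOT3 value is complete was not tested. CNOT10 and CNOT11, which form a module of their own, had log2 changes of 0.0045 and -0.12 in RLKO and of -0.76 and -0.47 in WT.

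PAN2 stood apart from every other factor. It encodes the catalytic subunit of the deadenylase that trims long poly(A) tails, and it had 14.0 FPKM in treated and 12.4 FPKM in untreated RLKO cells, against 43.9 FPKM in treated and 10.5 FPKM in untreated WT cells. The treated WT group was the high one, with the other 3 groups between 10.5 and 14.0 FPKM. Its log2 change was -0.0029 in RLKO and 1.39 in WT, where an unadjusted p = 0.00575 and q = 0.0628 in the authors' deposited table left it outside the threshold. The difference of the changes, WT minus RLKO, was 1.39, the one factor of 39 at 1 or higher, 2.56% against 4.42% of protein-coding genes. PAN3, which binds RNA and recruits PAN2, had 8.31 FPKM in treated and 6.78 FPKM in untreated RLKO cells, against 6.19 FPKM in treated and 6.45 FPKM in untreated WT cells (log2 0.10 in RLKO and -0.58 in WT).

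PAN2 lies on chromosome 12 (56316223 to 56334053, minus strand, GRCh38), 7543 bases downstream of STAT2 on the same strand. STAT2, a transcription factor of interferon signalling, rose in both lines: it had 38.1 FPKM in treated and 9.19 FPKM in untreated RLKO cells, with q = 0.0107 in the authors' deposited table. In WT it had 67.4 FPKM in treated and 7.22 FPKM in untreated cells, with q = 0.00180 in the authors' deposited table. Between the genes, on the other strand, IL23A had 0.781 FPKM in treated and 0.271 FPKM in untreated RLKO cells, and rose in WT to 3.22 FPKM in treated against 0.374 FPKM in untreated cells, with q = 0.0112 in the authors' deposited table. CNPY2, which overlaps the other end of PAN2, had 136 FPKM in treated and 216 FPKM in untreated RLKO cells, against 66.8 FPKM in treated and 207 FPKM in untreated WT cells.

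Among these genes, STAT2 and IL23A had higher values after treatment in both lines, and CNPY2 had lower ones. PAN2 had a high value in treated WT cells alone. Of the 42 factors, 7 had a protein-coding gene on their own strand within 10000 bases upstream, and in 1 of them, PAN2, that neighbour was called higher in WT. HSPA1L and PRPF31, the neighbours of LSM2 and CNOT3, were listed at 0 in all 4 groups and could not be called. Of all tested protein-coding genes 4.28% were called higher in WT. The share among such upstream neighbours in general was not counted, so nothing is read from this count. IL23A starts at base 56334174 on the plus strand and is transcribed away from PAN2. Whether reads that run on from STAT2, or that start between IL23A and PAN2, enter the PAN2 value was not tested. Whether the libraries kept the strand is not stated in the sources used here.

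**Figure D3:**
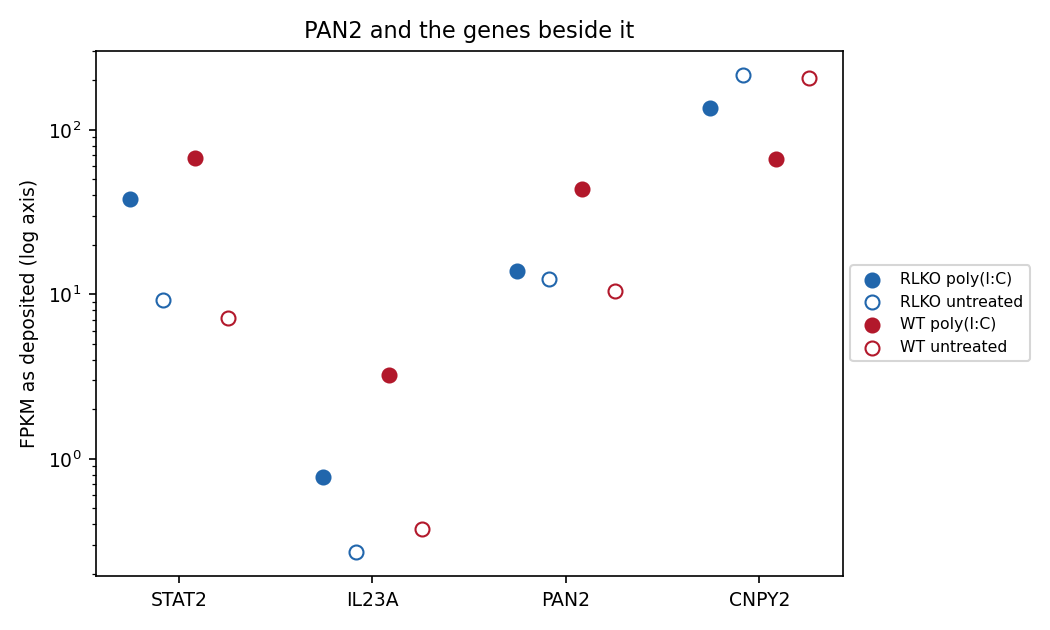
FPKM as deposited (vertical log axis) of STAT2, IL23A, PAN2 and CNPY2 in RLKO (blue) and WT (red), poly(I:C)-treated as filled and untreated as open circles, each the authors' single value for a group and without an error. STAT2 is higher after treatment in both lines, PAN2 stands at 43.9 FPKM in treated WT cells against 10.5 to 14.0 FPKM in the other groups, and CNPY2 is lower in both treated groups.

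The decapping factors, like CCR4-NOT, stayed near the protein-coding medians. The 6 measured genes had a median log2 change of -0.09 in RLKO and -0.52 in WT, but in FPKM as deposited they turned to 0.083 in RLKO and 0.078 in WT, and with median-ratio scaling to 0.27 in RLKO and 0.016 in WT. DCP2, the decapping enzyme, had 38.5 FPKM in treated and 37.3 FPKM in untreated RLKO cells, against 24 FPKM in treated and 32.2 FPKM in untreated WT cells (log2 -0.13 in RLKO and -1.01 in WT). DCP1A, its activating partner, had 11.8 FPKM in treated and 7.75 FPKM in untreated RLKO cells, against 12.5 FPKM in treated and 6.10 FPKM in untreated WT cells, a log2 change of 0.38 in both lines. DCP2 was thus the lowest of the group in WT and DCP1A the highest, and neither passed.

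PATL1, the bridge between the LSM ring and decapping, had 19.9 FPKM in treated and 15.8 FPKM in untreated RLKO cells, against 24.7 FPKM in treated and 14.7 FPKM in untreated WT cells (log2 0.15 in RLKO and 0.13 in WT). Its value after treatment was higher in both lines in FPKM as deposited, whereas in the ring it binds only LSM4 was higher, and only in RLKO. EDC3 and EDC4, enhancers of decapping, and DDX6, a helicase of P-bodies, ranged from -0.32 to -0.05 in RLKO and from -0.71 to -0.43 in WT.

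The 5′ to 3′ exonucleases lay on opposite sides of 0 in WT. XRN1, the cytoplasmic enzyme that destroys decapped mRNA, had 31.1 FPKM in treated and 20.3 FPKM in untreated RLKO cells, against 29 FPKM in treated and 12.2 FPKM in untreated WT cells. Its log2 change was 0.42 in RLKO, the highest of all factors there, and 0.61 in WT, where an unadjusted p = 0.0154 and q = 0.120 in the authors' deposited table left it outside the threshold. XRN2, the nuclear enzyme that also ends transcription, had 66.5 FPKM in treated and 63.9 FPKM in untreated RLKO cells, against 33.0 FPKM in treated and 59.4 FPKM in untreated WT cells (log2 -0.12 in RLKO and -1.43 in WT), with q = 0.32 for WT in the authors' deposited table. For XRN1 both treated groups lay above both untreated groups, and for XRN2 treated WT cells were the single low group.

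UPF1, the helicase of nonsense-mediated decay, lay between 16.3 and 21.3 FPKM in all groups. It had 16.3 FPKM in treated and 16.6 FPKM in untreated RLKO cells, against 21.3 FPKM in treated and 16.4 FPKM in untreated WT cells (log2 -0.19 in RLKO and -0.23 in WT). The sign of the UPF1 change depended on the scale. In FPKM as deposited it was -0.025 in RLKO and 0.36 in WT, and with median-ratio scaling it lay above 0 in both lines.

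To show the sequence at the start of factors from both ends of the WT range, the stretch between the annotated gene and the nearest other gene, within 250 bases upstream of the RefSeq start (GRCh38.p14), is printed for the 2 highest and 2 lowest WT changes among factors with at least 100 such bases that could be shown. These are PAN2 (chr12:56334054-56334173, minus strand), XRN1 (chr3:142448063-142448287, minus strand), LSM5 (chr7:32495284-32495425, minus strand) and EXOSC9 (chr4:121801073-121801316, plus strand), each written 5′ to 3′ on the gene's strand. Capitals mark a CCAAT box, CCAAT or its reverse complement ATTGG.
PAN2: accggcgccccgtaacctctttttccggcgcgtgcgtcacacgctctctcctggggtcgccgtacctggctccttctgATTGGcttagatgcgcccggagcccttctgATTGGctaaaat
XRN1: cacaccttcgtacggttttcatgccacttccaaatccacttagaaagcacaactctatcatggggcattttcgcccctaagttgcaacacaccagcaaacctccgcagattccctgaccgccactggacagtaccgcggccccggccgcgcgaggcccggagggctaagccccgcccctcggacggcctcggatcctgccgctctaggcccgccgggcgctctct
LSM5: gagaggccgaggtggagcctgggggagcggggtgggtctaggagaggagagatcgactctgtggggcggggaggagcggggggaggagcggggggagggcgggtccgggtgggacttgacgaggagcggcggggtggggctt
EXOSC9: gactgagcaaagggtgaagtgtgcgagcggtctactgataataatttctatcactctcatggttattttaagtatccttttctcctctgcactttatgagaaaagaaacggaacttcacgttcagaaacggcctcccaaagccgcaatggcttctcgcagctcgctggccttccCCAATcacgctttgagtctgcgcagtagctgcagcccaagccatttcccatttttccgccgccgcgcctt

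The printed stretch of PAN2 holds 2 CCAAT boxes on the opposite strand and that of EXOSC9 holds 1, while those of XRN1 and LSM5 hold 0. The printed stretch of LSM5 is only 142 bases long, and LSM5 does have a CCAAT box in a whole window of 250 bases. Over the whole 250 bases, on either strand, a CCAAT box was found in 15 of 49 promoters of 36 matched factors, 30.6%, against 32% of 35116 RefSeq promoters. The core of the interferon-stimulated response element, GAAA, any 2 bases and GAAA again, or the reverse complement with TTTC, was found in 2 of the 49, 4.08%, both of EXOSC3, against 3.02% of all, and in none of the 4 printed. These are matches of letters in these windows and say nothing of binding.

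Set directly against each other, treated WT cells had lower levels of most decay factors than treated RLKO cells. This held for 32 of 39 factors, 82.1% against 64.3% of protein-coding genes. These levels were not set against protein-coding genes of like level and length, and the factors were more abundant than protein-coding genes in general. By the median over the 39 factors, the untreated lines lay closer together. Scaled to the spike-ins, the median log2 level in treated WT over treated RLKO cells was -0.51 for the 39 factors and -0.25 for protein-coding genes. At -1 or lower stood 8 factors, 20.5% against 11.3%: LSM1, LSM3, LSM4, LSM5, EXOSC1, EXOSC8, XRN2 and CNOT6L. In FPKM as deposited these were 4, LSM1, LSM4, LSM5 and EXOSC8, 10.3% against 7.79%. PAN2, at 1.44, was the one factor at 1 or higher, where the background was 4.93%. In untreated RLKO over untreated WT cells the median was -0.24 for the factors and for protein-coding genes, but in FPKM as deposited it turned to 0.037 for the factors. Below 0 on the spike-in scale were 32 of 39, 82.1% against 78.2%, and none reached 1 in either direction (backgrounds 0.246% higher and 1.33% lower). By role, the untreated median on that scale was -0.59 for the LSM ring and -0.53 for the exosome core. All 6 and all 9 subunits lay below 0. It was -0.12 for CCR4-NOT, -0.10 for decapping and -0.09 for the exosome nucleases. In treated WT over treated RLKO cells the LSM ring had a median of -1.14 and the exosome core one of -0.73.

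The difference of the responses, WT minus RLKO, had a median of -0.68 over the factors and -0.47 over protein-coding genes. It was below 0 for 34 of 39 factors, 87.2% against 73.3%, and at -1 or lower for 12 of them, 30.8% against 24.1%. By role its median was -1.74 for the LSM ring, -1.24 for the exosome core, -0.57 for CCR4-NOT, -0.48 for the exosome nucleases and -0.29 for decapping, the last of which turned to 0.14 in FPKM as deposited. For each gene this difference adds the gap between the untreated lines to that between the treated lines. Higher untreated levels in WT than in RLKO cells therefore enter the medians of the LSM ring and the exosome core. The factors above 0 were PAN2, CNOT4, XRN1, DCP1A, at 0.00018, and CNOT3, which was kept only through its treated WT value; without CNOT3, 34 of 38 were below 0. In FPKM as deposited 26 of 39 were below 0, 66.7% against 55.1%, with CNOT2, CNOT11, DDX6, DIS3L, EDC4, EXOSC6, PATL1 and UPF1 changing sign, and 6 were at -1 or lower, 15.4% against 10.5%. On the spike-in scale, the difference was also set against protein-coding genes of like level and length, in the classes given below. The 39 factors lay at a median of 0.11 there, with 24 above their classes. The LSM ring lay at -0.66, with 5 of 6 subunits below, and the exosome core at 0.025, with 3 of 9 below.

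These roles differ in abundance and length, which move with the change across all protein-coding genes. The factors had a median of 37.3 FPKM in untreated RLKO cells, against 13.5 FPKM for protein-coding genes. The LSM ring and the exosome core were at 72.0 and 84.1 FPKM, with median transcript lengths of 2083 and 2113 bases, whereas decapping factors and CCR4-NOT were at 31.0 and 27.7 FPKM with 5630.5 and 4697.5 bases. Across the 39 factors, the log2 level in untreated RLKO cells and the WT change had a Pearson r of -0.73 and a Spearman rho of -0.77, where 12181 protein-coding genes gave -0.63 for both. Genes are not independent replicates, and the level used here comes from a group that does not enter the WT change, though all groups share one table and scale. That group does enter the RLKO change and the difference, WT minus RLKO. These therefore share its error with the level and with the classes of level used below.

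**Figure D4:**
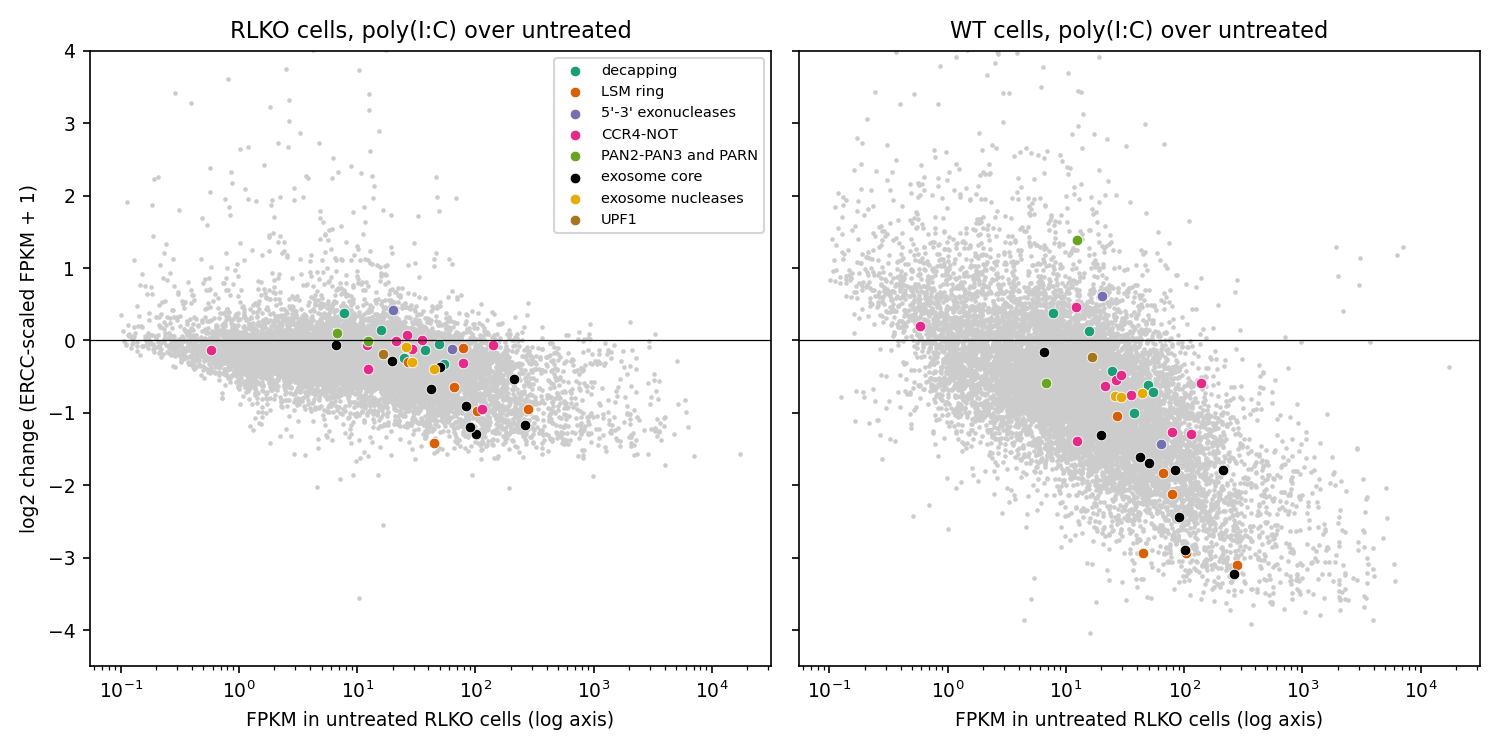
Log2 change, treated over untreated, of FPKM scaled to the spike-ins (vertical axis, pseudocount 1) against FPKM in untreated RLKO cells (horizontal log axis), in RLKO on the left and WT on the right; grey points are kept protein-coding genes with at least 0.1 FPKM and a change within the axis, and coloured points are the 39 factors by role. In WT the factors at 100 to 300 FPKM have -2.89 as their median and those at 10 to 30 FPKM one of -0.51, while grey points of these levels have medians of -1.90 and -0.78.

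The 14 factors at 10 to 30 FPKM had -0.51 as their median WT change, against -0.78 for protein-coding genes of that level. At 30 to 100 FPKM the 14 factors there had -1.52, against -1.25, and at 100 to 300 FPKM the 7 factors had -2.89, against -1.90. When each factor was set against protein-coding genes of the same class of level and length, the 39 lay at a median of 0.10 in RLKO and 0.15 in WT. The LSM ring still lay below its classes in WT, by a median of -0.77 and in 5 of 6 subunits (LSM7 excepted), and in RLKO by -0.15. The exosome core lay at -0.25 in RLKO and -0.15 in WT, with 5 of 9 subunits below in WT and a range there from -1.32 (EXOSC9) to 0.27 (EXOSC5). LSM3 had the lowest departure in WT, at -1.81, followed by EXOSC9 at -1.32 and EXOSC8 at -1.17. PAN2, at 2.11, CNOT4, at 1.18, and XRN1, at 1.12, had the highest.

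**Figure D5:**
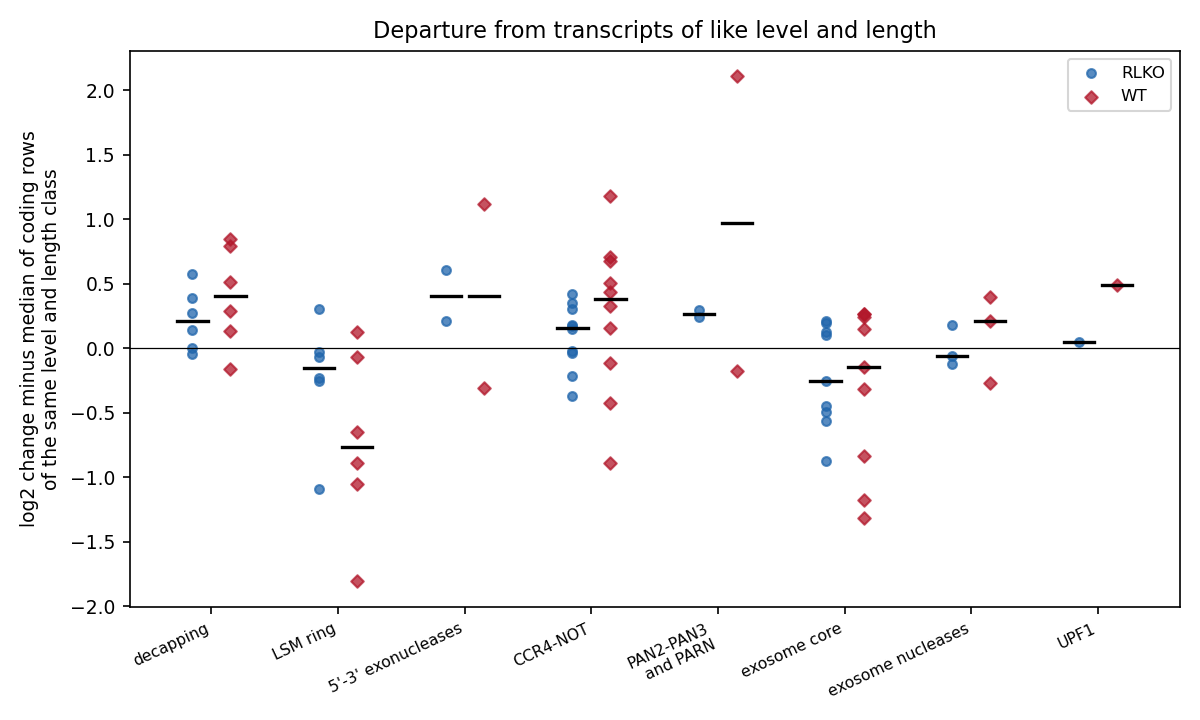
Log2 change minus the median of protein-coding genes of the same class of untreated RLKO level and transcript length (vertical axis) for the 39 factors by role, in RLKO (blue circles) and WT (red diamonds); black bars are medians over the factors of a role, and no point has an error available. The WT bars stand at -0.77 for the LSM ring, -0.15 for the exosome core, 0.38 for CCR4-NOT and 0.40 for decapping.

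Other features moved less with the WT change than the level did. RNase L cuts mainly after UA and UU dinucleotides, and these made up a median of 13.2% of dinucleotides in the longest protein-coding transcript of the factors, against 11.5% for protein-coding genes. Across the 39 factors this share had an r of -0.01 with the WT change (rho 0.03), where protein-coding genes gave -0.14 for both. Transcript length had an r of 0.52 (rho 0.58), against 0.21 (rho 0.25) over protein-coding genes, and GC content had an r of 0.02 (rho 0.00). For the half-lives that the authors took from another study, in a unit the header does not give, r was -0.35 over 37 factors and -0.44 over 9527 protein-coding genes.

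Of 73 further genes, nonsense-mediated decay factors, deadenylation and decapping partners, exosome cofactors, small-RNA effectors and other endonucleases, 69 were kept. By the authors' q, 4 of the 69 rose in WT and none fell, 5.8% against 4.28% of protein-coding genes called higher, and 1 rose in RLKO and none fell, 1.45% against 0.839%. These shares lie near the background. ISG20, an interferon-induced 3′ to 5′ exonuclease, rose in both lines: it had 65.3 FPKM in treated and 10.8 FPKM in untreated RLKO cells and 119.8 FPKM in treated and 14.4 FPKM in untreated WT cells, log2 changes of 2.31 in RLKO and 2.38 in WT. It was the single call in RLKO, with q = 0.0107 in the authors' deposited table.

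BTG2, which activates CCR4-NOT, had 3.50 FPKM in treated and 2.24 FPKM in untreated RLKO cells and rose in WT to 22.3 FPKM in treated against 2.34 FPKM in untreated cells (log2 0.34 in RLKO and 2.29 in WT). PNRC1, a regulator of decapping, had 29.6 FPKM in treated and 10.0 FPKM in untreated RLKO cells, with q = 0.0702 in the authors' deposited table, and rose in WT to 63.1 FPKM in treated against 9.79 FPKM in untreated cells (log2 1.31 in RLKO and 1.99 in WT). ZC3H12A, the endonuclease Regnase-1 that cuts inflammatory mRNAs, had 10.7 FPKM in treated and 10.5 FPKM in untreated RLKO cells and rose in WT to 33.7 FPKM in treated against 9.33 FPKM in untreated cells (log2 -0.14 in RLKO and 1.17 in WT). Each of the 4 had q = 0.00180 in WT in the authors' deposited table. The difference between the lines was not tested for any of them.

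Some partners of the LSM proteins and the exosome had changes as low as members of these complexes, without calls. LSM8, which takes the place of LSM1 in the nuclear ring, had 60.5 FPKM in treated and 139.5 FPKM in untreated RLKO cells, against 44.6 FPKM in treated and 167 FPKM in untreated WT cells (log2 -1.37 in RLKO and -2.48 in WT). Of the exosome cofactors, WDR61 of the SKI complex had a log2 change of -0.95 in RLKO and -2.26 in WT, and C1D one of -1.02 in RLKO and -2.08 in WT. LSM8 and WDR61 were at 100 to 300 FPKM in untreated RLKO cells, where protein-coding genes had a WT median of -1.90. Of the 16 kept cofactors and other 3′ nucleases, 13 lay below 0 in WT, with a range from -2.26 to 2.38 (ISG20). The 16 kept cofactors and other 3′ nucleases had a median of -0.45 in RLKO and -0.90 in WT, the 13 nonsense-mediated decay factors one of -0.15 in RLKO and -0.40 in WT, and the 9 small-RNA effectors one of -0.25 in RLKO and 0.05 in WT. NOCT, a circadian member of the deadenylase-like family, had 58.5 FPKM in treated and 8.90 FPKM in untreated RLKO cells and 95.5 FPKM in treated and 9.89 FPKM in untreated WT cells without passing in either line.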

How the data were processed

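Per the labels, total RNA of 12 samples, 3 for each of 4 groups, was sequenced; the series' design text calls them independent without saying whether they were separate cultures, so the authors' p-values measure the spread between these samples, which may be technical. The tools were Cuffdiff 2.2.1, TopHat2 2.0.6, Bowtie2 2.0.2, Trimmomatic 0.32 and FastQC, with the build GRCh38.p12, per the submitters' processing notes. Settings, strandedness and the scaling by Cuffdiff were not given in the sources used here. For each gene and group the authors deposited 1 FPKM value, and read depth is unknown. The p-values and q-values, and a normalised fold stand for each genotype per the file headers; that fold equals the deposited FPKM ratio divided by a constant (1.14 in RLKO and 1.56 in WT). GC content in percent, transcript length and a half-life were deposited as gene properties. No column held a single sample, so the authors' q-values were used as deposited, at a threshold of 0.05, as planned for that case.

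Rows with at least 1 FPKM in 1 group were kept (22087, of which 12181 protein-coding by GENCODE 29), and 86 rows with the status HIDATA were left out. FPKM were divided by a spike-in factor per group, the median ratio of 49 ERCC rows (those averaging 1 FPKM or more) to their geometric mean across groups. Log2 changes used a pseudocount of 1, in Python 3.11 with code tested on simulated data. The members and the lists were chosen with earlier results of these data known. Given in full were called members, the 3 highest and 3 lowest changes in each line and in their difference, and catalytic subunits; of partners, the called ones and up to 3 by size. Added after values were seen were the classes of level (limits 3, 10, 30, 100 and 300 FPKM) and length (1500, 3000 and 6000 bases), the promoter motifs, the neighbours within 10000 bases and counts without the member kept only through treated WT cells. UA and UU were counted in the longest GENCODE protein-coding transcript, and promoters came from RefSeq (GRCh38.p14), where 36 of 42 members had an entry. Annotated pseudogene copies were found for 8 members, and 33 members overlap another annotated gene, in 27 cases one listed at 1 FPKM or more. The level of the targeted gene is not reported here. Alternatives were other thresholds, filters, pseudocounts and scalings.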

Additional observations from a re-analysis of the deposited data

How the results depend on the processing

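The counts of called factors did not depend on the adjustment: 2 in WT, EXOSC1 and LSM4, and 0 in RLKO with p-values adjusted by Benjamini-Hochberg over kept rows, and at q under 0.10 3 in WT, with PAN2, and 0 in RLKO. The medians over factors depended on the scaling. In WT the median was -0.78, against -0.20 in FPKM as deposited, -0.26 with median-ratio scaling, -0.89 with a filter of 5 FPKM and -0.45 for the 18 factors under 30 FPKM in untreated RLKO cells, a split chosen after seeing the data. In RLKO it was -0.24, against -0.071 as deposited, 0.073 with median-ratio scaling and -0.077 for those 18. The difference, WT minus RLKO, was -0.68, against -0.31 as deposited, -0.53 with median-ratio scaling and -0.27 for those 18. Treated WT over treated RLKO was -0.51, against -0.37 as deposited and -0.62 with scaling to the ERCC sum. Untreated RLKO over untreated WT was -0.24, against 0.037 as deposited and -0.055 with median-ratio scaling. Over protein-coding genes the deposited and median-ratio medians were -0.096 and 0.060 in RLKO and -0.17 and -0.23 in WT. By role, FPKM as deposited gave 0.075 for CCR4-NOT in RLKO, 0.083 for decapping in RLKO, 0.078 for decapping in WT and 0.14 for the decapping difference, WT minus RLKO. Median-ratio scaling gave 0.26 for CCR4-NOT, 0.27 for decapping and 0.053 for the exosome nucleases in RLKO, and 0.016 for decapping in WT. FPKM as deposited changed the sign of 11 of 39 factors in RLKO, 6 in WT and 8 for the difference, median-ratio scaling that of 18 in RLKO, 4 in WT and 3 for the difference, the ERCC sum and the authors' constants each that of 1 in RLKO, 0 in WT and 1 for the difference, and another pseudocount or filter that of none. The authors' constants compare treated with untreated cells only, so they gave no value for comparisons of treated or of untreated lines. No paired analysis was possible because the table holds 1 value per group, and for the same reason no sample could be left out. With depth unknown and no sample values, a change that missed the threshold is not shown to be absent.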
